A study of Mus musculus with 6 samples.

Results

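The genes described here encode enzymes that modify drugs, environmental chemicals, steroids, retinoids and aldehydes. They were chosen by name from the array: non-control probes whose gene name begins with Cyp1, Cyp2, Cyp3, Akr1, Ces and a digit, Gsta, Gstm, Gsto, Gstp, Gstt, Aldh, Fmo and a digit, or Ugt. A probe was a member when 3 or more of the 6 arrays showed it well above background, so the values that chose members within these names were detection calls. The families themselves were chosen with earlier results of the group comparison known. Of 202 probes with such names, for 154 genes, 146 probes for 113 genes were members, and 56 probes were left out. The whole series held 39429 non-control probes, and 23676 genes were tested. Name prefixes also bring in relatives with other substrates, such as Cyp11a1, Cyp17a1, Cyp26b1 and Cyp27b1.

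The series compared ear skin of 3 NC16A sufficient mice (WT 1, 2 and 3) with ear skin of 3 NC16A deficient mice (KO 1, 2 and 7), matched for age and sex per the design text. NC16A is a segment of BP180, also called collagen XVII, which anchors basal keratinocytes to the basement membrane and is encoded by Col17a1. The labels name no treatment, age, strain or Cre driver, and the type of NC16A allele is not stated there. Total RNA of each mouse was hybridised to 1 one-colour array.

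Cytochrome P450s and flavin monooxygenases (Fmo) oxidise foreign and endogenous compounds, carboxylesterases (Ces) cleave esters, aldo-keto reductases (Akr1) reduce carbonyl groups, and aldehyde dehydrogenases (Aldh) turn aldehydes into acids. Glutathione S-transferases (Gst) and UDP-glucuronosyltransferases (Ugt) then attach glutathione or sugar, which makes products easier to export. In skin these families are known from keratinocytes, sebaceous glands, fat and dermal cells, where they also set the levels of retinoic acid, vitamin D and steroid hormones.

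The array reads each transcript through an oligonucleotide of 60 bases, and the probes behind the calls are printed because close relatives in these families can share sequence. The first 4 probes, for Cyp1a1 (chr9:57551535-57551594), Cyp2g1 (chr7:27606111-27606170), Akr1c18 (chr13:4131895-4131954) and Akr1c19 (chr13:4247522-4247581), had no other member probe like them. Member probes were compared with each other only, and not with the transcripts of related genes. The Ces1d probe (chr8:95693648-95694933) covers a stretch longer than the probe, so its position is split. The Cyp2a21-ps probe (chr7:27737339-27737398) and the Cyp2a4 probe (chr7:27099880-27099939) shared 52 of 56 aligned bases, which the capitals mark, so the signals of these genes may hold each other's transcripts. Positions are on mm9 per the file headers, with the Akr1c18 and Ces1d probes on the minus strand and the others on the plus strand, and whether a probe lies in coding sequence was not analysed here.
Cyp1a1 probe: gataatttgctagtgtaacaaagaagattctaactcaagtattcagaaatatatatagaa
Cyp2g1 probe: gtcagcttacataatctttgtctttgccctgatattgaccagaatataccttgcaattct
Akr1c18 probe: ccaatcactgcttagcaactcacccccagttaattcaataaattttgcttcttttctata
Akr1c19 probe: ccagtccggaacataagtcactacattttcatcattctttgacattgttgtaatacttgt
Ces1d probe: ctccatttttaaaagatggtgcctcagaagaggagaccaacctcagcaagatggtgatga
Cyp2a21-ps probe: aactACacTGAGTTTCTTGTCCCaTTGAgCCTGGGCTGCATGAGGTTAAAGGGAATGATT
Cyp2a4 probe: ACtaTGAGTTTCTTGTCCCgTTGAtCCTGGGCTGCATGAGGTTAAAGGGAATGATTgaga

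Every difference subtracts the WT mean from the KO mean of log2 values and is followed by its limma standard error (SE), with 3 mice a group. A relative level is the log2 of the processed signal after division by the 75th percentile of that array's non-control probes, so that 0 is the signal of that percentile. A gene passed at a Benjamini-Hochberg adjusted p under 0.05 over all 23676 genes. Levels of different probes cannot be set against each other. In whole ear skin, fewer cells of a type and less RNA per cell cannot be told apart.

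Between 72.6% and 78.2% of spots were well above background on each array, and no spot was saturated. The arrays of WT 1, 2 and 3 and of KO 1 shared slide 1, while KO 2 and KO 7 were on slide 2, so a value within slide 1 rests on 1 KO mouse. Col17a1 itself differed by -0.13 ± 0.14 (log2 difference, adjusted p = 0.58), but neither labels nor headers tell whether its probe lies in the missing segment, so it checks no label. Epidermal keratinocyte markers were measured for 7 of 7 genes, and 0 of 7 passed (median log2 difference 0.50). Among markers of other cells, 12 of 13 hair follicle genes rose (median 3.21). Summed over the 13, the level was 6.34 to 11.95 times the array's 75th percentile on WT and 68.9 to 122 on KO arrays. Such a summed level, here and for the adipocyte markers below, is weighted toward the brightest probes and does not measure a share of cells. Stressed keratinocyte markers (3 of 6 rose) and neutrophil markers (3 of 8 rose) had median log2 differences of 2.54 and 1.95. The neutrophil markers that rose were S100a8, S100a9 and Cxcr2. Of the 8, 7 had positive log2 differences, and Ly6g was lower on every KO array (-0.35, adjusted p = 0.19). The part of these cell types in the enzyme results below was not tested.

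Of the 113 enzyme genes, 1 rose in KO skin, 5 fell, and the rest did not pass. The gene that rose was Cyp1a1, and those that fell were Cyp2g1, Akr1c18, Cyp2a21-ps, Akr1c19 and Ces1d. The higher call was 1 of 113 against 1.98% of all genes tested, and the lower calls were 5 of 113 against 0.389% of all genes tested. KO values lay wholly above the WT values in 13 members, against 21.4% of all genes, and wholly below them in 28 members, against 14.0% of all genes. At an unadjusted p under 0.05, 12 members were higher and 29 were lower, where 16.9% and 9.73% of all genes were. The 29 include Cyp2c23, which was kept only through the WT arrays, so the filter favoured its direction and it bears no weight. The median log2 difference was -0.09 over members and 0.05 over all genes tested. These counts leaned toward lower values in KO skin among the members, while all genes tested leaned toward higher values. The lower count moved between 2 and 10 when 1 mouse was left out, with 10 without KO 1, 2 without WT 2 or WT 3, 3 without WT 1 or KO 2 and 4 without KO 7. The higher count was 0 without WT 2, WT 3 or KO 7, 2 without WT 1, and 1 without KO 1 or KO 2. Cyp1a1 itself passed only without WT 1 (adjusted p = 0.020), so the calls without KO 1 or KO 2 were of other genes.

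**Figure D1:**
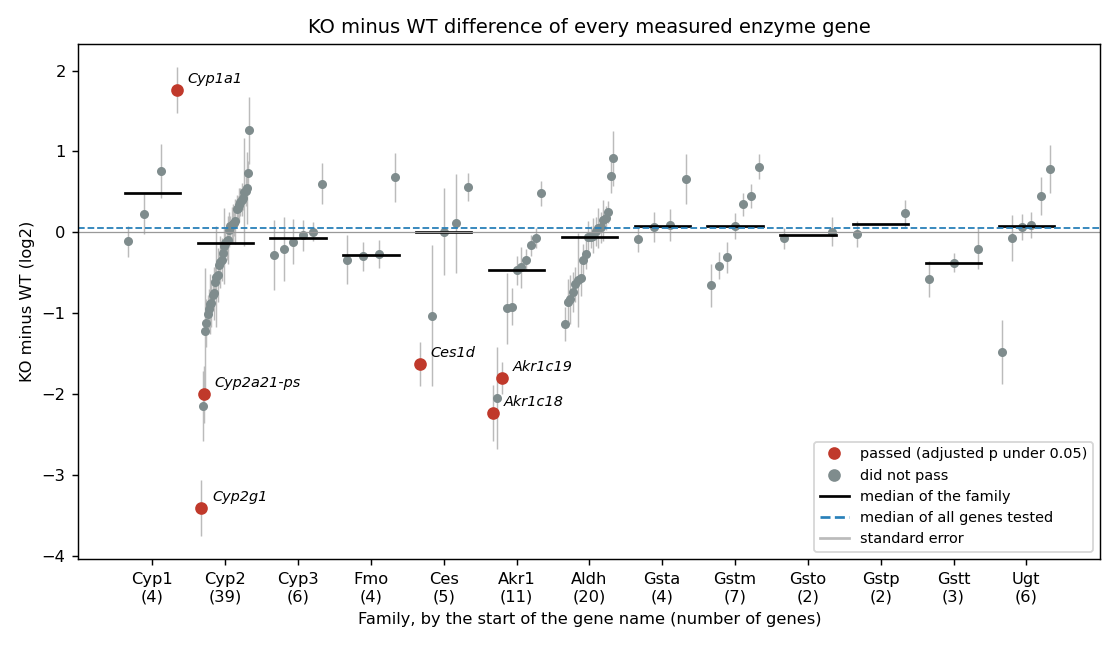
Log2 difference KO minus WT (vertical axis) of each of the 113 enzyme genes, grouped by the start of the gene name on the horizontal axis, with the number of genes in parentheses. Points are genes with their standard errors, red points passed the limma test, black bars are family medians and the dashed line is the median of all genes tested (0.05); Akr1 has 10 of its 11 genes below 0.

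The oxidising P450s gave the widest spread. Cyp2g1, a P450 best known from the olfactory mucosa, had relative log2 levels of 3.94, 4.28 and 3.13 in WT 1, 2 and 3 and of 0.25, 0.85 and 0.02 in KO 1, 2 and 7. Every KO array was more than 2 log2 units below every WT array. This is a log2 difference of -3.41 ± 0.35 (95% confidence interval -4.24 to -2.58, adjusted p = 0.0068), a level 10.6-fold lower in KO skin. It passed with each of the 6 mice left out in turn (adjusted p 0.012 to 0.028). KO 1 against the WT mice of its own slide gave -3.53, and the fit that takes slide as a block gave an adjusted p of 0.077.

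Cyp2g1 lies in the Cyp2 gene cluster of chromosome 7, of which 11 genes were measured by probes mapped there. The neighbouring pseudogene Cyp2a21-ps had relative log2 levels of -2.06, -2.05 and -2.68 in WT 1, 2 and 3 and of -3.69, -4.14 and -4.99 in KO 1, 2 and 7. The groups did not overlap, and KO 7 was the lowest. Its log2 difference was -2.01 ± 0.35 (adjusted p = 0.045), while slide 1 alone gave -1.43 (adjusted p 0.44 in the fit with a slide block). The call of Cyp2a21-ps held without KO 1 or KO 7 and was lost without WT 1, WT 2, WT 3 or KO 2 (adjusted p 0.11, 0.17, 0.087 and 0.11).

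Cyp2a4, a testosterone 15-alpha-hydroxylase in liver, had relative log2 levels of -1.59, -1.61 and -2.19 in WT and of -3.23, -3.70 and -4.91 in KO skin. Again no KO array reached a WT array. Its log2 difference of -2.15 ± 0.43 did not pass (adjusted p = 0.058). Its other probe differed by -1.65 ± 0.29 on the log2 scale and passed when each probe was tested alone (adjusted p = 0.043). Since the main Cyp2a4 probe is the one that resembles the Cyp2a21-ps probe printed above, these genes do not count as independent.

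Cyp2f2, a P450 of lung club cells that activates naphthalene, had relative log2 levels of 3.79, 4.36 and 4.07 in WT and of 3.48, 2.78 and 2.93 in KO skin (log2 difference -1.01 ± 0.24, adjusted p = 0.079). The cluster did not move as a block. Cyp2b19, an arachidonic acid epoxygenase of keratinocytes whose probe lies between those of Cyp2a4 and Cyp2g1, differed by 0.28 ± 0.17 on the log2 scale (adjusted p = 0.32). Cyp2b10, a classical target of the nuclear receptor CAR, differed by 0.09 ± 0.23 (log2, adjusted p = 0.82), and Cyp2s1 by 0.07 ± 0.13 (log2, adjusted p = 0.73). In all, 5 of the 11 cluster genes had KO values wholly below WT (Cyp2g1, Cyp2a4, Cyp2a21-ps, Cyp2f2 and Cyp2b9) and none had them wholly above. Over all genes tested these shares were 14.0% and 21.4%. Cyp2a4 and Cyp2a21-ps are not independent within this count.

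**Figure D2:**
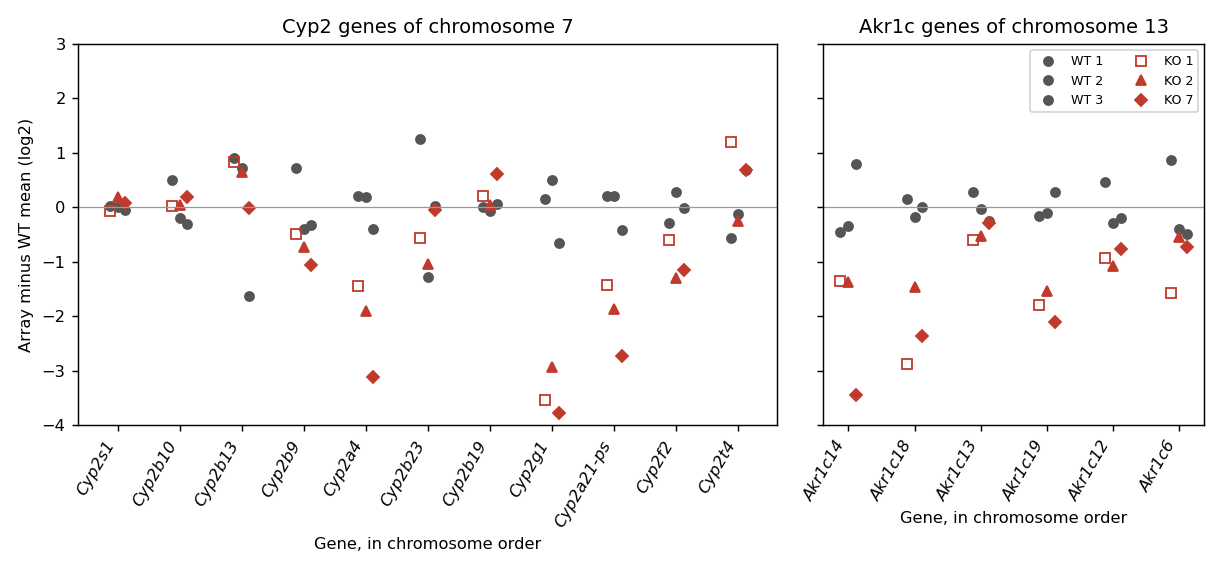
Each array's relative log2 level minus the WT mean of the gene (vertical axis) for 11 Cyp2 genes of chromosome 7 and 6 Akr1c genes of chromosome 13, ordered by probe position on the horizontal axis. Grey circles are the 3 WT arrays and red symbols the 3 KO arrays; the KO symbols of Cyp2g1 lie between -3.77 and -2.93, while those of its neighbour Cyp2b19 lie between 0.04 and 0.61.

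Over the whole Cyp2 family, cluster included, 37 of 39 genes did not pass and the median log2 difference was -0.13. Both calls of the family, Cyp2g1 and Cyp2a21-ps, lie in the cluster. The 5 Cyp2j genes, whose products make epoxides from arachidonic acid, all had negative log2 differences. They ran from -0.88 (Cyp2j6) to -0.13 (Cyp2j7, which turned positive with normexp background). In 4 of them KO values were wholly below WT, against 14.0% of all genes tested. None of the Cyp2j genes passed. A second probe of Cyp2j13 went the other way (log2 difference 1.21 ± 0.21, adjusted p = 0.042 when tested alone), against -0.40 ± 0.15 for the probe with the higher mean. Cyp2c38 differed by 1.26 ± 0.42 (log2, adjusted p = 0.13), with KO 2 within the WT range and KO 1 and KO 7 above it. Cyp2u1, a fatty acid omega-hydroxylase, differed by 0.40 ± 0.21 (log2, adjusted p = 0.25). Cyp20a1, an orphan P450, differed by -0.78 ± 0.19 with groups that did not overlap (log2, adjusted p = 0.080). Cyp2e1, the ethanol-inducible P450, spread so widely among WT mice (relative log2 levels -0.09, 2.56 and 2.12) that its log2 difference of -1.23 ± 0.78 was within the replicate spread (adjusted p = 0.34).

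Cyp1a1 is the P450 that the aryl hydrocarbon receptor (AhR), a sensor of dioxins and tryptophan products, induces most. Its relative log2 levels were -0.23, -0.84 and -1.32 in WT 1, 2 and 3, against 0.83, 0.85 and 1.18 in KO 1, 2 and 7. The KO arrays were all above the WT arrays, and the WT mice were the more variable group. KO minus WT gave 1.75 ± 0.28 on the log2 scale (95% confidence interval 1.07 to 2.43, adjusted p = 0.035), or 3.37-fold higher in KO skin. Slide 1 alone gave 1.63 (adjusted p 0.36 in the fit with a slide block). The call of Cyp1a1 held without WT 1 (adjusted p = 0.020) and was lost without WT 2, WT 3, KO 1, KO 2 or KO 7 (0.14, 0.077, 0.051, 0.099 and 0.074).

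Cyp1b1, the other measured P450 known as AhR-inducible, did not differ beyond its error (log2 difference -0.11 ± 0.19, interval -0.57 to 0.34, adjusted p = 0.72), and Cyp1a2 was not well above background on enough arrays. Of the 6 listed genes of the AhR pathway, among them the receptor Ahr, its partner Arnt, its repressor Ahrr and the targets Tiparp and Nqo1, 0 passed. Their log2 differences ran from -0.45 to 0.25, with a median of -0.03. The smallest p was that of Tiparp, at -0.45 ± 0.20 (log2, adjusted p = 0.20), which is opposite in sign to Cyp1a1. Nqo1, a quinone reductase, differed by 0.14 ± 0.12 (log2, adjusted p = 0.47).

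Because Cyp1a1 passed and Cyp1b1 did not, the 250 bases before each start site are shown, from RefSeq on GRCm38.p6. The core of the AhR response element, GCGTG, was searched on both strands, and the capitals mark each match, which reads CACGC where it lies on the opposite strand. The Cyp1a1 window (chr9:57697363-57697612, plus strand) held 1 match, 54 bases upstream of the start, and the Cyp1b1 window (chr17:79715062-79715311, minus strand) held 1 match, 76 bases upstream. GCGTG was present in 28.2% of all 32851 windows of this length and in 20.4% of the 103 windows of member genes. By gene, it was present for 19 of the 90 member genes that had a window. A match of 5 letters is a description of the window and not evidence of binding, and elements farther upstream lie outside it.
Cyp1a1 promoter: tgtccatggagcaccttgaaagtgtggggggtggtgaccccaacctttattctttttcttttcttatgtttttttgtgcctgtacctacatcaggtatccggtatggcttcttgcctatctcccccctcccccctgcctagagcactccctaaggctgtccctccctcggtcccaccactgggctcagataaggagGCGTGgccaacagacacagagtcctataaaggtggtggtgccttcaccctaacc
Cyp1b1 promoter: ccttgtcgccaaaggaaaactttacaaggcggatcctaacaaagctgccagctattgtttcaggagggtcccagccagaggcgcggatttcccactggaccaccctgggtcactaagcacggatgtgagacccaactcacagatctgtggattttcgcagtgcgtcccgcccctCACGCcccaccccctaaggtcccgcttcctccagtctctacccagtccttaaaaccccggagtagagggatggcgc

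Retinoic acid is made from retinal by Aldh1a1, Aldh1a2 and Aldh1a3 and broken down by Cyp26 enzymes. Aldh1a1 had relative log2 levels of 1.65, 2.16 and 2.04 in WT and of 1.66, 0.84 and 1.14 in KO skin (log2 difference -0.74 ± 0.25, adjusted p = 0.14). KO 1 lay within the WT range and the slide 2 arrays below it. Aldh1a2 differed by -0.86 ± 0.28 (log2, adjusted p = 0.13) and Aldh1a3 by 0.91 ± 0.34 (log2, adjusted p = 0.16), and in both genes the groups did not overlap. Aldh1a7, a close relative of Aldh1a1, had relative log2 levels of 0.44, 0.70 and 0.17 in WT and of -0.41, -0.65 and -1.03 in KO skin, which did not overlap. Its log2 difference of -1.14 ± 0.21 missed the threshold (adjusted p = 0.052), with -0.85 on slide 1 alone.

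Of the breakdown enzymes, Cyp26b1 differed by 0.11 ± 0.24 (log2, interval -0.48 to 0.69, adjusted p = 0.79). Cyp26a1 had relative log2 levels of -1.57 ± 0.50 in WT and -2.69 ± 0.35 in KO skin (SD, n = 3), and the groups did not overlap (log2 difference -1.12 ± 0.30, adjusted p = 0.095). Cyp26c1 was not well above background on enough arrays. Of 17 listed genes of retinoid handling, 0 passed, and the median log2 difference was 0.23, but -0.01 within slide 1. The smallest p there was that of Dhrs9, a retinol dehydrogenase, at 2.62 ± 0.65 with groups that did not overlap (log2, adjusted p = 0.086).

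Vitamin D is activated by Cyp27b1. It had relative log2 levels of -6.29, -6.55 and -6.39 in WT and of -5.85, -5.47 and -5.71 in KO skin, all well above background, and the groups did not overlap. Its log2 difference was 0.73 ± 0.15 (adjusted p = 0.061). Cyp2r1, a vitamin D 25-hydroxylase, differed by 0.42 ± 0.15 (log2, adjusted p = 0.14), but its second probe by -0.26, and Cyp27a1, the sterol 27-hydroxylase, by -0.94 ± 0.25 (log2, adjusted p = 0.092). Cyp24a1, which breaks vitamin D down, was not well above background on enough arrays. In steroid synthesis, Cyp11a1 differed by 0.75 ± 0.33, Cyp17a1 by 0.23 ± 0.24 and Cyp21a1 by 0.38 ± 0.17 (log2 differences, adjusted p 0.21, 0.56 and 0.22).

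Of the 11 aldo-keto reductases, 10 had negative log2 differences and 2 fell, and the family median was -0.47. Akr1c18, the 20-alpha-hydroxysteroid dehydrogenase that inactivates progesterone, had relative log2 levels of 2.43, 2.10 and 2.28 in WT 1, 2 and 3 and of -0.61, 0.81 and -0.10 in KO 1, 2 and 7. The WT mice lay close together, and all KO mice were lower. On the log2 scale KO skin was lower by a difference of -2.24 ± 0.35 (95% confidence interval -3.07 to -1.40, adjusted p = 0.031), or 4.72-fold lower in KO skin. It was -2.88 on slide 1 alone. In the fit with a slide block, Akr1c18 was the 1 member of 113 that passed as lower (adjusted p = 0.047), against 0.0422% of all genes, and 0 members passed as higher, against 0.667% of all genes. Without WT 1, WT 2, WT 3 or KO 7 the adjusted p of Akr1c18 rose to 0.087, 0.11, 0.10 and 0.070, and it passed without KO 1 or KO 2.

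Akr1c19, a reductase of the same chromosome 13 cluster, had relative log2 levels of -3.38, -3.32 and -2.94 in WT and of -5.00, -4.74 and -5.31 in KO skin. The groups stood apart by more than their own ranges. The log2 difference was -1.80 ± 0.20 (adjusted p = 0.0085), or 3.49-fold lower, and it passed with each mouse left out in turn (adjusted p 0.018 to 0.043). On slide 1 alone it was -1.78 (adjusted p 0.11 in the fit with a slide block).

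The other 4 measured Akr1c genes did not pass. In all 6 measured Akr1c genes the KO values were wholly below the WT values, against 14.0% of all genes tested. Akr1c14, a 3-alpha-hydroxysteroid dehydrogenase, had relative log2 levels of -1.55, -1.44 and -0.29 in WT and of -2.45, -2.46 and -4.54 in KO skin (log2 difference -2.05 ± 0.63, adjusted p = 0.12). Akr1c12 differed by -0.92 ± 0.23, Akr1c6 by -0.94 ± 0.43 and Akr1c13 by -0.47 ± 0.18 (log2, adjusted p 0.085, 0.22 and 0.16). The median over the 6 genes was -1.37, and -1.46 within slide 1. No pair of Akr1c probes was alike by the measure used for the Cyp2a probes, which did not compare probes with transcripts. Whether an Akr1c probe also reads a relative's transcript was not tested, so the 6 genes may not be independent.

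Outside Akr1c, the log2 differences of the probes with the highest mean ran from -0.44 (Akr1b10) to 0.48 (Akr1b8). Akr1b3, aldose reductase, differed by -0.34 ± 0.13 and Akr1a1, aldehyde reductase, by -0.08 ± 0.12 (log2, adjusted p 0.17 and 0.70). A second probe of Akr1b3 gave -1.02 ± 0.23, with groups that did not overlap (log2, adjusted p = 0.074 when tested alone). Akr1b8 was the member of Akr1 with a positive log2 difference, at 0.48 ± 0.16, with relative log2 levels of 1.70, 1.68 and 1.45 in WT and of 1.93, 2.02 and 2.32 in KO skin (adjusted p = 0.13).

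**Figure D3:**
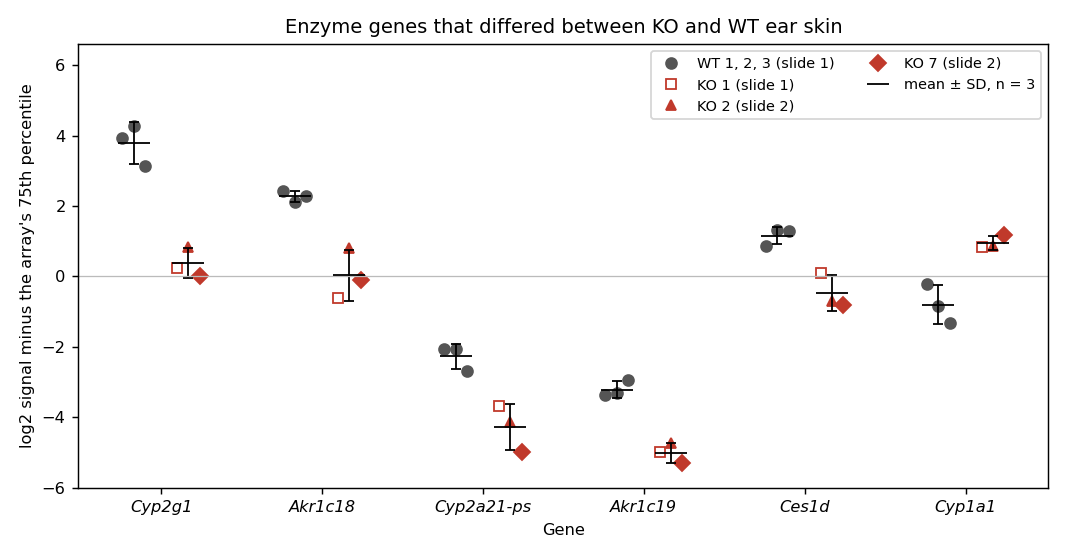
Relative log2 level (log2 signal minus the array's 75th percentile, vertical axis) on each of the 6 arrays for the 6 enzyme genes that passed (horizontal axis), with group means and SD, n = 3. In each gene the 3 KO arrays lie on 1 side of the 3 WT arrays, and Cyp1a1, with KO levels of 0.83 to 1.18, is the gene with the KO arrays above; levels of different genes cannot be compared.

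Among the carboxylesterases, Ces1d, a triacylglycerol hydrolase of liver and fat cells, had relative log2 levels of 0.87, 1.33 and 1.28 in WT 1, 2 and 3 and of 0.11, -0.70 and -0.82 in KO 1, 2 and 7. The groups did not overlap, and KO 1 was the KO array nearest to WT. Its log2 difference was -1.63 ± 0.28 (adjusted p = 0.039), with KO at 0.323 of the WT level, and -1.05 on slide 1 alone (adjusted p 0.27 in the fit with a slide block). The call of Ces1d was lost without any 1 mouse except KO 1 (adjusted p 0.066, 0.16 and 0.12 without WT 1, 2 and 3, and 0.11 and 0.074 without KO 2 and KO 7). Adipocyte markers were lower in 8 of 8 genes with 0 passing (median log2 difference -0.90, and -0.42 within slide 1), and their summed level was 71.5 to 168 on WT arrays and 59.97 to 101 on KO arrays. Their part in the Ces1d difference was not tested. Ces2e differed by 0.56 ± 0.17 and Ces4a by 0.11 ± 0.61 (log2, adjusted p 0.12 and 0.92).

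No aldehyde dehydrogenase passed among 20 genes. At an unadjusted p under 0.05, 2 were higher and 6 lower, against 16.9% and 9.73% of all genes tested. Aldh3a1, an aldehyde dehydrogenase abundant in the cornea that clears lipid peroxidation products, had relative log2 levels of 3.96, 4.14 and 4.21 in WT and of 4.29, 4.10 and 4.44 in KO skin, with overlap (log2 difference 0.17 ± 0.15, interval -0.18 to 0.52, adjusted p = 0.47). Aldh3a2, the fatty aldehyde dehydrogenase whose loss causes ichthyosis in Sjögren-Larsson syndrome, differed by -0.04 ± 0.22 (log2, adjusted p = 0.91). Aldh3b1 and Aldh3b2 differed by -0.06 ± 0.20 and 0.06 ± 0.19 (log2, adjusted p 0.85 for each). Aldh2, the mitochondrial enzyme that oxidises acetaldehyde, was below WT on every KO array, with relative log2 levels of 2.38, 2.50 and 2.27 in WT and of 2.01, 1.92 and 1.28 in KO skin. Its log2 difference of -0.64 ± 0.22 did not pass (adjusted p = 0.14).

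The mitochondrial and amino acid enzymes split in direction. Aldh5a1, succinic semialdehyde dehydrogenase, differed by 0.69 ± 0.21, and Aldh6a1, of valine breakdown, by -0.83 ± 0.30 (log2, adjusted p 0.11 and 0.16), each with groups that did not overlap. Aldh9a1, of carnitine synthesis, differed by -0.57 ± 0.22 and Aldh16a1 by 0.25 ± 0.13 (log2, adjusted p 0.17 and 0.27). The other 7 genes of that role list, which are Aldh1b1, Aldh1l1, Aldh1l2, Aldh4a1, Aldh7a1, Aldh8a1 and Aldh18a1, had log2 differences from -0.59 to 0.15. The median over its 12 genes was -0.16.

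The flavin monooxygenases gave no call among 4 genes. Fmo1 had relative log2 levels of -1.58, -0.48 and -0.71 in WT and of -1.09, -1.52 and -1.17 in KO skin, with overlap (log2 difference -0.34 ± 0.30, adjusted p = 0.48). Fmo2 and Fmo5 differed by -0.30 ± 0.18 and -0.27 ± 0.18 (log2, adjusted p 0.30 and 0.35). None of the 6 Cyp3 genes passed either, with log2 differences from -0.28 (Cyp3a57) to 0.60 (Cyp3a11). Cyp3a13 and Cyp39a1, an oxysterol 7-alpha-hydroxylase, differed by -0.04 ± 0.19 and 0.01 ± 0.12 (log2, adjusted p 0.90 and 0.97).

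Of the conjugating enzymes, 0 of 18 glutathione S-transferases and 0 of 6 glucuronosyltransferases passed. At an unadjusted p under 0.05, 2 and 1 of them were higher and 4 and 1 lower. Among all genes tested, 16.9% were higher and 9.73% lower by that measure. The median log2 difference over the 18 transferases was -0.01. Gstm2 came nearest to the threshold, with relative log2 levels of 3.37, 3.72 and 3.65 in WT and of 4.21, 4.48 and 4.49 in KO skin, which did not overlap. Its log2 difference was 0.81 ± 0.16 (adjusted p = 0.054) and its 3 probes ran from 0.69 to 0.81. Gstm6 was also higher on every KO array (0.45 ± 0.15), while Gstm5 was lower on every KO array (-0.41 ± 0.17, log2, adjusted p 0.14 and 0.18).

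Gsta4, which conjugates the lipid aldehyde 4-hydroxynonenal, had relative log2 levels of -2.07, -2.60 and -2.54 in WT and of -1.55, -2.38 and -1.30 in KO skin, with overlap (log2 difference 0.66 ± 0.31, adjusted p = 0.22). Gstp1 differed by -0.02 ± 0.16 and Gstp2 by 0.23 ± 0.17 (log2, adjusted p 0.95 and 0.39). The Gstp1 probe shared 30 of 35 aligned bases with the second Gstp2 probe, which differed by 0.02 ± 0.16. The Gsta1 and Gsta2 probes shared 46 of 50, and these genes differed by 0.09 ± 0.19 and -0.09 ± 0.16. All 3 theta genes had negative log2 differences, with Gstt3 at -0.38 ± 0.11 and Gstt1 at -0.58 ± 0.22 (adjusted p 0.12 and 0.17).

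Ugt8a, the ceramide galactosyltransferase of myelin-forming cells, had relative log2 levels of -4.69, -4.89 and -4.97 in WT and of -5.56, -6.21 and -7.22 in KO skin. The groups did not overlap, the log2 difference was -1.48 ± 0.40 (adjusted p = 0.098), with -0.71 on slide 1 alone. The median log2 difference of 5 Schwann cell markers was -0.12, and their part in the Ugt8a value was not tested. Ugt1a10 differed by 0.78 ± 0.29 (log2, adjusted p = 0.16). Ugt1a6a differed by 0.09 ± 0.16 in its probe with the highest mean, but its other probes gave 1.74 ± 0.33 and -1.25 ± 0.33 (adjusted p 0.053 and 0.097 when tested alone). No single value describes Ugt1a6a here.

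The enzymes depend on receptors, reducing partners, glutathione and exporters, of which 84 genes were listed and 77 measured. At an unadjusted p under 0.05, 14 of the 77 were higher and 7 lower, near the 16.9% and 9.73% of all genes tested. By adjusted p, 2 rose and 0 fell, at a background of 1.98% and 0.389% of all genes. Both that rose belong to the list of the NRF2 pathway and glutathione supply, where they were 2 of 14. Gpx2, a glutathione peroxidase of epithelia, had relative log2 levels of -1.30, -1.18 and -1.28 in WT and of 0.73, 0.78 and 0.51 in KO skin. The groups stood far apart, with a log2 difference of 1.93 ± 0.13 (adjusted p = 0.0019), which passed with each mouse left out (adjusted p 0.0028 to 0.016) and in the fit with a slide block (adjusted p = 0.024).

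Slc7a11, the cystine importer that feeds glutathione synthesis, had relative log2 levels of -5.96, -7.20 and -7.27 in WT and of -4.71, -4.29 and -4.69 in KO skin, without overlap. The log2 difference was 2.24 ± 0.36 (adjusted p = 0.035), and 2.10 on slide 1 alone (adjusted p 0.36 in the fit with a slide block). The Slc7a11 call held without WT 1 (adjusted p = 0.0093) and was lost without WT 2, WT 3, KO 1, KO 2 or KO 7 (0.13, 0.10, 0.051, 0.11 and 0.068). The median over the 14 genes of this list was 0.06, and the other 12 did not pass.

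The remaining lists had no call. Their smallest p belonged to Abcc3 among 6 drug exporters (1.17 ± 0.23, adjusted p = 0.055), to Nr1i3, which is the receptor CAR, among 5 nuclear receptors (1.85 ± 0.43, 0.077), and to Aox4 among 12 further aldehyde and ketone enzymes (2.08 ± 0.51, 0.085). Mgst2 led 11 other conjugating enzymes (0.71 ± 0.19, 0.096) and Cyb5r3 led 6 redox partners and epoxide hydrolases (-0.40 ± 0.14, 0.14). These values are log2 differences with SE.

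**Figure D4:**
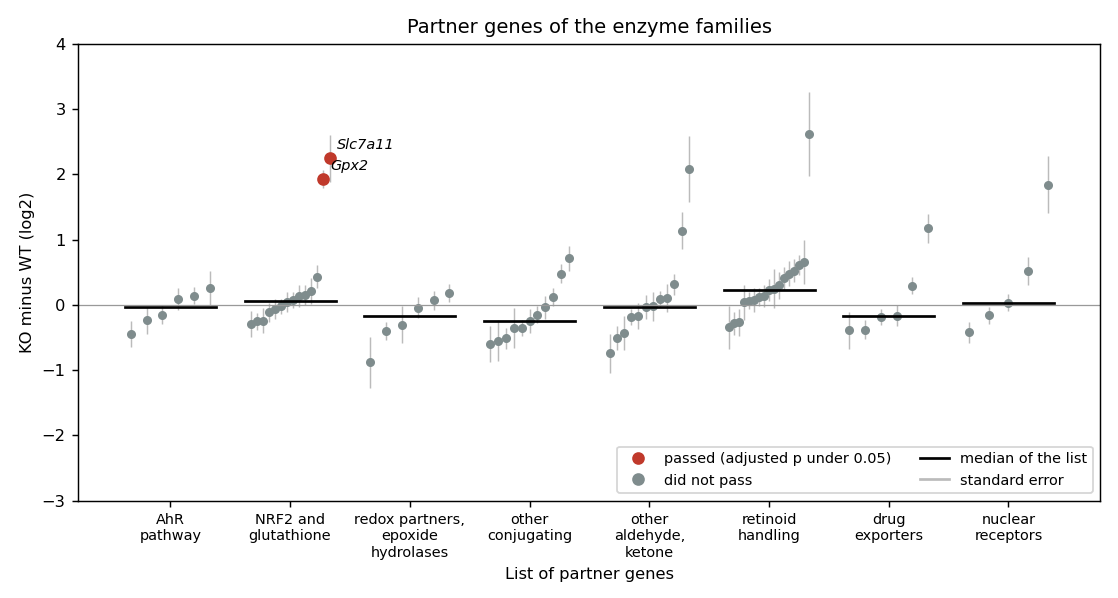
Log2 difference KO minus WT (vertical axis) of 77 partner genes in 8 lists (horizontal axis), with standard errors and list medians as black bars. The red points, Gpx2 at 1.93 and Slc7a11 at 2.24, are those that passed, and the 6 genes of the AhR pathway lie between -0.45 and 0.25.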

How the data were processed

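Each of 6 one-colour Cy3 arrays (design 026655) measured total ear skin RNA of 1 mouse. Extraction used Qiagen RNeasy kits, per the labels' protocols. The deposited scanner files give each spot's processed signal as an intensity, made by Agilent Feature Extraction 10.7.3.1, per the file headers. No normalization between arrays is recorded there, and the series matrix holds the same intensity values for 43340 features on each array, as deposited.

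Control spots and 170 to 249 outlier spots per array were left out and spots of a probe averaged. Values were log2 signal minus the array's 75th percentile, which was 5276 to 6656 intensity units on WT and 3806 to 4416 on KO arrays. Keeping probes that 3 or more arrays showed well above background left 29602, with 1 probe per gene (highest mean). The groups were compared with limma 3.58.1 in R 4.3.3 (lmFit and eBayes, two-sided, no covariate, 4 residual and 2.64 prior degrees of freedom), adjusted by Benjamini-Hochberg, and tested on simulated data. Nothing says that the samples share litters, and the number of arrays limits the precision. Names came from a RefSeq table (GRCm38.p6), which matched 141 member probes by accession and 5 by symbol, and gave 9 a newer name. Promoters were the 250 bases before the start in the same release, and 90 of 113 member genes had one. Probes of different genes counted as alike at 25 or more identical bases and 85% identity over at least 20 aligned bases.

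The named genes were 13 fixed ones, each family's calls or its genes with the smallest p, its highest signals, the role lists (AhR-inducible P450s, retinoic acid, vitamin D, steroid hormone, lipid aldehyde and mitochondrial aldehyde enzymes) and, in each partner list, the calls or the smallest p. Other genes were named after their values were seen, and a few results are not reported here. Members, lists and rules were chosen with earlier results of these data known. Alternatives covered background, scaling, filter, probes, matrix values, slide, replicate block, intensity trend and each mouse left out. Other steps used pandas 2.3.3, matplotlib 3.10.9 and numpy 2.4.6 under Python 3.11.15.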

Additional observations from a re-analysis of the deposited data

How the results depend on the processing

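No direction of a called gene turned under any alternative run. The count of enzyme genes that rose (1) was 3 with normexp background, 2 with the filter on all 6 arrays or with an intensity trend, 2 with each probe tested alone (the second probe of Cyp2j13, whose main probe was lower), and 0 without a filter, with slide as a fixed block, within slide 1 or with the replicate block; with 1 mouse left out it ran from 0 to 2. The count that fell (5) was 8 with normexp background or an intensity trend, 7 with the filter on all 6 arrays, 6 with each probe tested alone (the other Cyp2a4 probe), 4 with quantile normalization or slide as a random block, 2 without a filter, 1 with slide as a fixed block or within slide 1, and 0 with the replicate block, and from 2 to 10 with 1 mouse left out. Partner genes that rose (2) were 5 with normexp, 1 with quantile normalization, without a filter, with slide as a fixed block or within slide 1, and 0 with the replicate block, and from 1 to 4 with 1 mouse left out. The cause of these changes was not tested. Over all genes, 469 rose and 92 fell, against 390 and 149 with the array median, which moved the median log2 difference of all genes from 0.05 to -0.08 (members -0.22), 334 and 120 with quantile normalization, 912 and 136 with normexp, and 0 and 0 with the replicate block. The numbers did not pair the mice, since same-numbered mice correlated at 0.08 and 0.05 in their deviations from group means and only 2 numbers are shared, so calls lost with the replicate block say nothing of size. With slide as a fixed block the estimate is that of slide 1 alone, KO 1 against 3 WT mice.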

Other observations

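Among enzyme genes that the detection rule left out or barely kept, some were above background in 1 group only, and their values are given with no test. Ugt2a3, a glucuronosyltransferase, was well above background on 2 KO arrays and no WT array, with relative log2 levels of -5.02, -6.93 and -7.52 in KO 1, 2 and 7. Cyp2a12 was likewise above background on 2 KO arrays and no WT array, with levels of -6.26 and -6.70 in KO 2 and KO 7 and of -8.71 in KO 1. Cyp2c23, an arachidonic acid epoxygenase of kidney, was kept through the 3 WT arrays and lay near background on the KO arrays, so its level there is a bound and no fold is given. The other genes kept with exactly 3 arrays were Ces5a, Cyp2b13 and Cyp2b23.

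Probes of 28 member genes could be compared with a second probe of the same gene. In 21 of them all probes had the same sign, and the median range of the log2 differences was 0.19. The exceptions were Ces2c, Cyp2j13, Cyp2r1, Cyp3a13, Gsta3, Gstm1 and Ugt1a6a.

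The other promoter motifs searched on both strands were AGGTCA, a half-site of nuclear receptors, and TGACNNNGC, the antioxidant response element. AGGTCA was in 14.0% of all windows and 18.4% of member windows (18 of the 90 member genes). TGACNNNGC was in 10.2% of all windows and 4.9% of member windows (5 of the 90). Sebaceous gland markers rose in 1 of 12 genes (Elovl3, log2 difference 1.56), with a median of -0.10. The 6 macrophage, 5 cartilage and 8 muscle markers had no call, with medians of -0.30, -0.62 and -0.59. The 5 melanocyte markers had none either, with a median of 0.71, but of -0.04 within slide 1. Of 7 fibroblast markers 1 fell (Dpt, -1.18), and of 6 T cell markers 1 rose. Of 6 hepatocyte markers, 4 were measured and 0 passed, and Apoa1 and Fgb were not well above background on enough arrays.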
